A study of Mus musculus with 2 samples.

Results

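Naive pluripotency is the state of the early epiblast that mouse embryonic stem (ES) cells keep in culture. The transcription factors described here are 10 genes of the network that holds this state: Klf4, Nr0b1, Nanog, Esrrb, Klf2, Klf5, Tbx3, Tfcp2l1, Zfp42 and Prdm14. They were taken by name from the platform annotation, together with every probe set listed for them, which gave 10 of 18193 genes and 21 of 45101 probe sets. The choice of these members was made with earlier results of these data known. None of the 21 probe sets was shared with another gene in the platform annotation.

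In ES cells these factors stand between the signals of the medium and the core factors Pou5f1 and Sox2. Leukaemia inhibitory factor (LIF) acts through Stat3 on Klf4 and Tfcp2l1, Wnt signalling acts on Esrrb by lifting repression by Tcf7l1, and Prdm14 restrains signalling through the fibroblast growth factor receptor. ES cells remain viable with little DNA methylation, and Nanog, Klf4 and Zfp42 are lowered as cells leave the naive state for the primed state.

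Total RNA was hybridised to Affymetrix Mouse Genome 430 2.0 arrays, 1 from an ES cell culture titled as the control of a Dnmt1 knockout (KO) and 1 from a culture titled as the KO itself. Dnmt1 encodes the enzyme that copies DNA methylation onto the new strand after replication. The KO was made to serve as a control for other work on ES cell differentiation. The strain, sex, passage, medium, feeder layer, KO allele and number of clones are not stated in the labels. Both samples carry a source name that describes a control, so their titles were used to tell the KO array apart. There was 1 array per group, so no replicate spread exists to judge a difference by, no test between the groups was possible, and the precision of each value is limited by the number of arrays. RNA was measured in bulk, where fewer cells of a type and less RNA per cell cannot be told apart.

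A probe set is a group of short probes for 1 transcript region, and its value here is a linear signal intensity made with MAS5, the Affymetrix summary algorithm. The median signal of each array, 60.9 in the control and 74.2 in the KO, was used as a floor, because no detection calls are at hand. The median gene above the floor on both arrays was 1.34-fold brighter on the KO array, a shift of 0.43 on the log2 scale. Ratios below are KO over control relative to this shift, unless they are called as deposited. Dnmt1 went from 1949.1 to 262.1 on its brightest probe set, 9.99-fold lower. The ES cell markers Pou5f1 (2689.7 to 3297.0), Sox2 (5436.6 to 6962.0), Sall4, Utf1 and Lin28a exceeded the floor on each array.

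The promoters of the members differ in their content of CpG, the dinucleotide that Dnmt1 keeps methylated. RefSeq windows of 300 bases (build GRCm38.p6), from 250 bases before to 50 after a start site, were matched by symbol for 7 of the 10 members, with 9 windows because Nanog and Esrrb have 2 each. The 250 bases before the start site are shown for Zfp42, a member on chromosome 8, and for 3 others. These 3 had the highest ratios among the members above the floor on both arrays. Every CpG is in capitals. They lie at chr4:55532476-55532725 (minus strand) for Klf4, chrX:86191525-86191774 (plus strand) for Nr0b1, chr6:122707239-122707488 (plus strand) for Nanog and chr8:43307010-43307259 (minus strand) for Zfp42.
Klf4: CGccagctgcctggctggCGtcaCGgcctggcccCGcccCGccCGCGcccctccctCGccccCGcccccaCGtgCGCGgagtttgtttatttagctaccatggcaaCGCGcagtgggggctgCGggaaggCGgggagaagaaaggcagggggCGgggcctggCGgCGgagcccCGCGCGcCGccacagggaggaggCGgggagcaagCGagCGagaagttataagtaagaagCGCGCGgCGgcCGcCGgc
Nr0b1: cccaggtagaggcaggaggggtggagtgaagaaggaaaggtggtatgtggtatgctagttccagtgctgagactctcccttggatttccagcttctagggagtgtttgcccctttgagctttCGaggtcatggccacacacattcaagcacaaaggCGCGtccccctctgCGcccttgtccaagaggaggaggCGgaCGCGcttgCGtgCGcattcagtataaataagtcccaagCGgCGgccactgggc
Nanog: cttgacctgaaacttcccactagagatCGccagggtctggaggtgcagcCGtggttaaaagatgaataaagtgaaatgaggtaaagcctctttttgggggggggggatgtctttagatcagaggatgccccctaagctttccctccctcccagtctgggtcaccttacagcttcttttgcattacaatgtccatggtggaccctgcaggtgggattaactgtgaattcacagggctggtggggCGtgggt
Zfp42: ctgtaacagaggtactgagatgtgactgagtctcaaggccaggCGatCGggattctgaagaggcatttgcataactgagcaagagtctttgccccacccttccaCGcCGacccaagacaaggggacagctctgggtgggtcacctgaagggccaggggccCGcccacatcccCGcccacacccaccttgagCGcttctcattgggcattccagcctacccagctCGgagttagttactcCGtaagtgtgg

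The 300-base Klf4 window held 40 CpG, more than or as many as 96.5% of the 32851 windows in the table, whose median was 7. The Klf2 window held 32, that of Tfcp2l1 21, that of Nr0b1 14 and that of Zfp42 11. Both Esrrb windows held 7 and both Nanog windows held 4. The 4 members at least 2-fold higher, described below, therefore ran from 4 to 40 CpG per window. The others with a window ran from 11 to 32. Methylation was not measured in these samples.

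The composite site for Pou5f1 and Sox2, searched on both strands with any base between its parts, was found in the Nanog promoter as tttgcattacaatg, which begins 75 bases before the start site of the window shown. Apart from the free base, only this exact spelling was searched. Variants of the site in other windows, those of other members included, were not counted, so how common the site is was not tested. In this spelling the site was in 2 of the 32851 windows (0.00609%), and these were the overlapping pair of Nanog. Its first part, TTTGCAT, was also in the Zfp42 window, 185 bases before the start site, and in 4.63% of all windows. GGGCGTGG, a binding sequence of Klf factors, was found in Nanog, 10 bases before the start site shown, and in Tfcp2l1, on the opposite strand, against 5.33% of all windows. The Esrrb sequence TCAAGGTCA (0.423% of all windows) and the Stat sequence TTCCNGGAA (1.15%) were not found in these windows of the members. These matches describe the letters of the windows and no binding was measured.

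**Figure D1:**
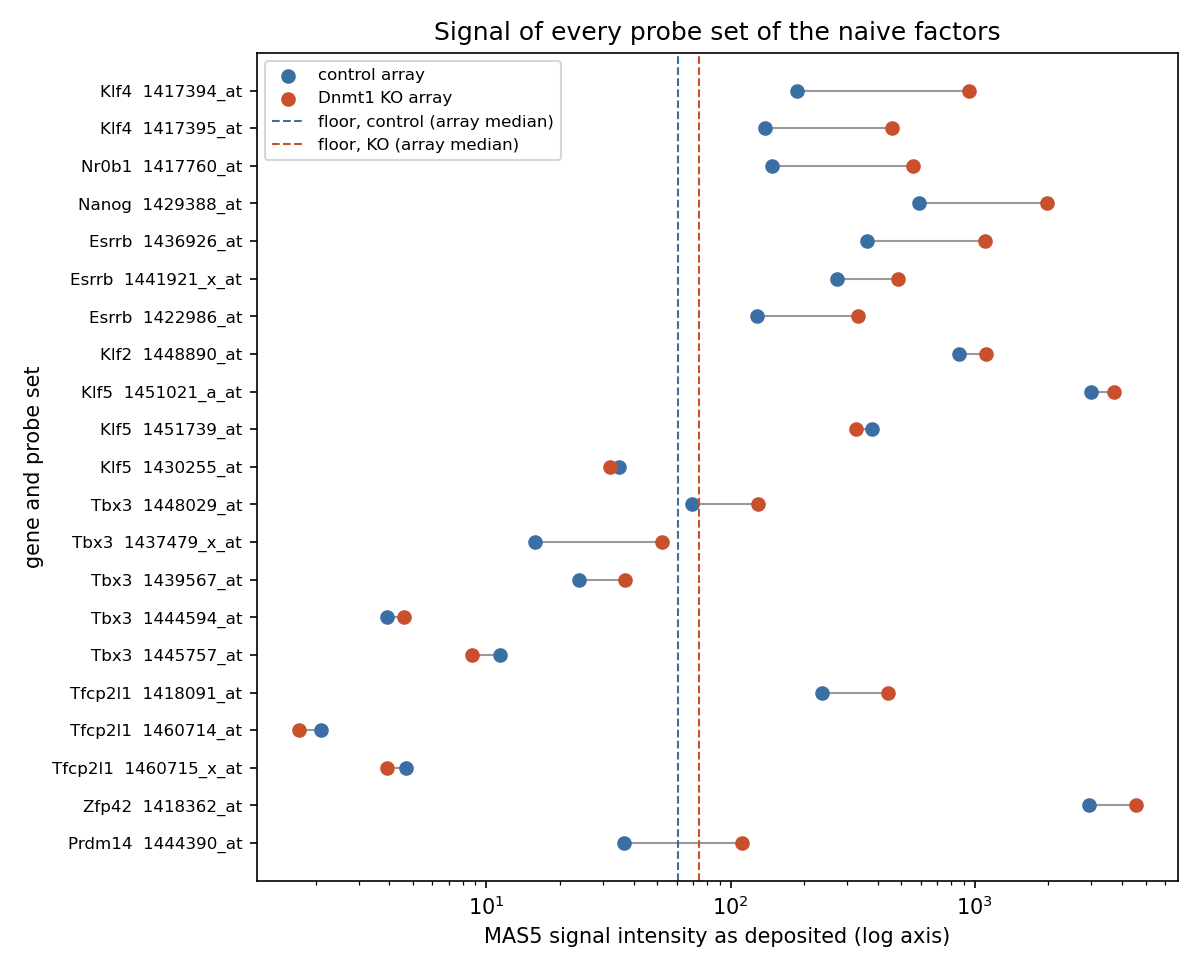
Signal intensity as deposited (x axis, log scale) of all 21 probe sets of the naive factors, with 1 point for the control array and 1 for the KO array; dashed lines mark the floors of 60.9 and 74.2. For Klf4, Nr0b1, Nanog and the brightest Esrrb probe set the KO point lies well to the right of the control point. This also holds for Prdm14 (36.5 and 110.9) and for 1 Tbx3 probe set under both floors (15.8 and 52.4). In all, 7 probe sets of Klf5, Tbx3 and Tfcp2l1 lie under the floor of each array.

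Klf4, Nr0b1, Nanog and Esrrb, 4 of the 10 factors, reached a 2-fold higher signal on the KO array, and no factor reached a 2-fold lower one. Among the 12226 genes with a signal over the floor on at least 1 array, 1.09% were higher and 0.532% lower by this measure. As deposited, the same 4 members were at least 2-fold higher, beside 4.92% of all genes, and none was 2-fold lower, beside 0.0982%. Relative to the shift, 8 of the 10 had a ratio above 0, against 49.2% of all genes, the exceptions being Klf2 and Klf5. The 8 include Prdm14, which was above the floor on the KO array alone, and passing in that way favours a ratio above 0. Each gene is represented here by its brightest probe set. The median log2 ratio of the 10 members was 0.47, against -0.0049 over all genes measured, with Prdm14 entered at its bound. Among the 9 members above the floor on both arrays, Esrrb, the lowest of the 4 at 2.26-fold higher, was followed by Tfcp2l1 at 1.39-fold higher. Where Prdm14 lies between or beyond them is not known, since its ratio is a bound.

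Of the 21 probe sets, 13 exceeded the floor on both arrays, 1 on the KO array alone and 7 on neither. Of the 14 above the floor on at least 1 array, 11 had a ratio above the shift, against 47.3% of all such single-gene probe sets, and 5 were at least 2-fold higher, against 0.988%. The 11 include the probe set of Prdm14, which exceeded the floor on the KO array alone. Probe sets of 1 gene share the sample, so they are repeated readings and not replicates of the genotype. The pooled SD between the probe sets of a gene was 0.24 on the log2 scale, over the 4704 genes where 2 or more could be compared on both arrays. It gives a technical scale and holds no difference between cultures or arrays.

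**Figure D2:**
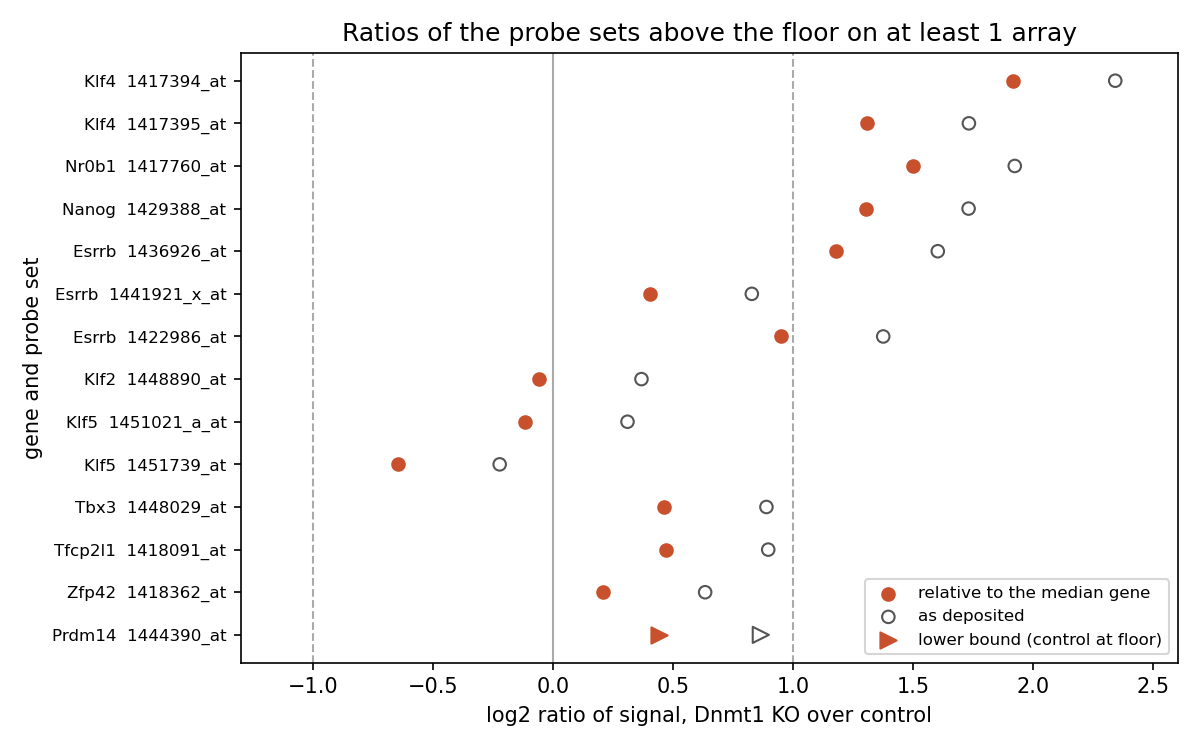
log2 ratio of KO over control (x axis) for the 14 probe sets above the floor on at least 1 array, relative to the median gene (filled) and as deposited (open); dashed lines mark 2-fold and the triangle of Prdm14 is a lower bound. Both Klf4 probe sets and those of Nr0b1 and Nanog lie beyond 2-fold on both scales, 1 of 3 Esrrb probe sets does so relative to the median gene, and both Klf5 probe sets lie left of 0 on that scale.

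Klf4, Klf2 and Klf5 are zinc finger factors of the Krüppel-like family that bind overlapping sites in ES cells and can partly replace each other there. Klf4 is also one of the factors used to reprogram somatic cells. Klf4 had the highest ratio of the 9 members above the floor on both arrays. Its brighter probe set gave 187.1 in the control and 947.8 in the KO, a 3.77-fold difference, and its other probe set gave 137.7 and 457.2, a 2.47-fold difference. Both readings were higher on the KO array, with a mean log2 ratio of 1.61 ± 0.43 (SD between 2 probe sets). By the brighter probe set Klf4 stood at rank 18 of 12226 genes, and it had the highest ratio among the 695 genes of chromosome 4 above the floor on both arrays.

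Klf2, whose protein is destabilised by Erk signalling in ES cells, had 1 probe set, which gave 864.8 in the control and 1115.9 in the KO. Its signal was higher as deposited, by 1.29-fold, but its log2 ratio relative to the shift was -0.06, and the scaling thus decided its direction. Klf5, which supports ES cell self-renewal, had 3 probe sets that differed. The brightest, of a type that detects several transcripts of 1 gene, gave 2993.0 and 3709.4 (log2 ratio -0.12), the second gave 378.9 and 324.7 (-0.65), and the third was below the floor on both arrays. The brightest reading of Klf5 was thus higher on the KO array as deposited and the second lower, and relative to the shift both were lower, with a mean of -0.38 ± 0.38 (SD between 2 probe sets).

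Across the Krüppel-like family, 16 of 17 listed genes had a single-gene probe set and 15 were above the floor on at least 1 array. Klf4 was the only one of the 15 past 2-fold in the higher direction, on both scales. Over all genes the share was 1.09%, or 4.92% as deposited. None was past 2-fold in the lower direction, or 1 (Klf12) with the floor at the 25th percentile. The median log2 ratio of the family was -0.11, or 0.32 as deposited. The next largest ratio in size among the family members measured on both arrays was that of Klf11 (169.1 to 331.7, log2 ratio 0.55). Klf1, a chromosome 8 gene of red blood cell development (79.7 to 69.3, -0.53 or below), and Klf12 (75.4 to 39.4, -0.45 or below) were at the floor on the KO array, so their place in that order is not known.

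Nanog, a homeobox factor whose level sets how readily ES cells leave self-renewal, had 1 probe set. It gave 592.5 in the control and 1965.5 in the KO, a ratio of 2.47-fold (1.30 on the log2 scale). Nanog stood at rank 60 of 12226 genes and at rank 4 of 511 on chromosome 6. The mouse genome also holds retrocopies of Nanog, and whether these probes bind their transcripts was not tested.

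Esrrb and Nr0b1 are orphan nuclear receptors. Esrrb binds DNA and can stand in for Nanog in self-renewal, and Nr0b1 (also called Dax1) lacks the usual DNA-binding domain and acts through other factors, among them Esrrb and Pou5f1. The single Nr0b1 probe set gave 147.8 in the control and 560.2 in the KO, a ratio of 2.82-fold. Nr0b1 lies on the X chromosome, where it stood at rank 5 of 364 genes compared on both arrays, whose median log2 ratio was -0.08.

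Esrrb had 3 probe sets, all of them higher on the KO array. The brightest gave 361.8 and 1098.1, 2.26-fold higher (log2 ratio 1.18). The other readings were 128.2 and 332.4 (log2 ratio 0.95) and, on a probe set of a type that can share probes with other transcripts, 273.4 and 485.1 (0.40). The mean over the 3 was 0.84 ± 0.40 (SD between probe sets), so Esrrb passed 2-fold on its brightest probe set and not on the mean.

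Tfcp2l1 and Tbx3 had ratios of 1.39-fold and 1.38-fold, and Prdm14 had only a lower bound. Tfcp2l1, a grainyhead-related factor downstream of LIF and Stat3, gave 236.5 and 440.0 (log2 ratio 0.47) on its brightest probe set, while its other probe sets were far below the floor on both arrays, at 4.7 and 3.9 and at 2.1 and 1.7. Tbx3, a T-box factor that supports self-renewal downstream of LIF, had 5 probe sets, of which 1 was above the floor (69.7 and 129.0, log2 ratio 0.46). The remaining 4 Tbx3 probe sets were below the floor on both arrays, and the brightest of them on the KO array read 15.8 and 52.4. On its measured probe set the Tbx3 signal of the control array lay close to the floor of 60.9.

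Prdm14, a PR-domain factor that keeps de novo DNA methylation genes low in ES cells and is needed for primordial germ cells, was below the floor on the control array (36.5) and above it on the KO array (110.9). Its ratio is therefore a bound of at least 1.36-fold (log2 ratio at least 0.44). Dnmt3b, a de novo methyltransferase that Prdm14 represses, gave 3743.7 and 4350.5 (log2 ratio -0.21, or 0.22 as deposited), so its direction depended on the scaling. Dnmt3l, another gene of de novo methylation, had a log2 ratio of 0.67, or 1.10 as deposited, and was thus higher on both scales. Other genes of this group are not described here.

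Zfp42, better known as Rex1, is a zinc finger factor used as a reporter of the naive state. Its single probe set gave 2937.3 in the control and 4555.0 in the KO. The ratio was 1.55-fold as deposited and 1.15-fold relative to the shift (0.21 on the log2 scale). Zfp42 and Klf2 lie on chromosome 8, whose genes stood apart from those of the other chromosomes. The median log2 ratio was -0.37 for the 601 chromosome 8 genes measured on both arrays, and 9.65% of them lay above the shift, against 0.01 and 52.3% for the 10394 other genes. Why chromosome 8 was lower was not tested.

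Set against the median of their own chromosome, a comparison chosen after the data were seen, Zfp42 was 1.49-fold higher (log2 ratio 0.58) and Klf2 1.24-fold higher (0.31). Zfp42 stood at rank 26 and Klf2 at rank 77 of the 601 genes. Neither reached 2-fold on this scale. For the members on other chromosomes the same step moved the log2 ratio little, for example to 1.90 for Klf4, 1.57 for Nr0b1, 1.28 for Nanog and -0.09 for Klf5.

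**Figure D3:**
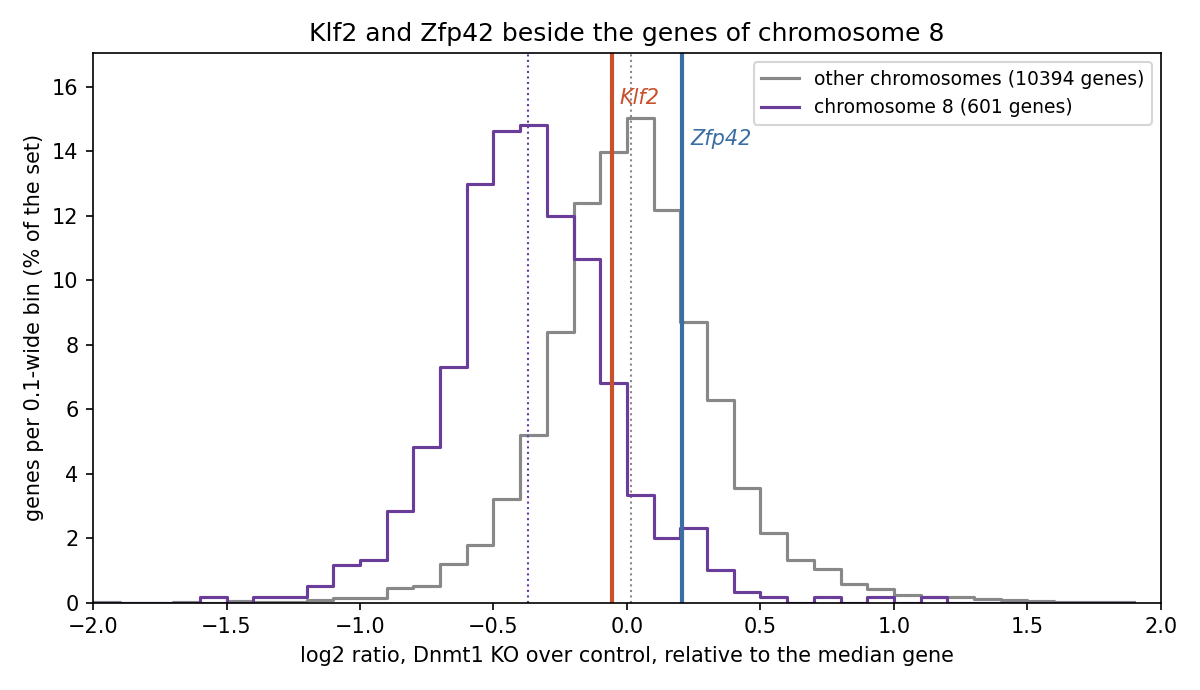
Share of genes per bin (y axis, % of each set) by log2 ratio relative to the median gene (x axis), for 601 genes of chromosome 8 and 10394 other genes above the floor on both arrays; dotted lines are the medians of -0.37 and 0.01. Klf2 (-0.06) and Zfp42 (0.21) lie right of the chromosome 8 median.

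Related gene lists were described in the same way. Of 9 measured core pluripotency factors, none was 2-fold different on either scale and 8 lay below the shift, with a median log2 ratio of -0.12 (0.31 as deposited). Pou5f1 and Sox2 had -0.13 and -0.07, and the largest ratios in size were those of the ES cell chromatin factor Utf1 (2460.9 to 2154.9, -0.62), of Nacc1 on chromosome 8 (1153.7 to 1143.9, -0.44) and of Mycn (3275.5 to 3917.4, -0.17). As deposited, Utf1 had -0.19 and Nacc1 -0.012.

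Of 16 other genes known for their level in naive cells, none was 2-fold different relative to the shift. As deposited, 4 were 2-fold higher, beside 4.92% of all genes. The median was -0.09 (0.33 as deposited). The junction gene Jam2 (116.8 to 281.1, 0.84), the maternal factor Dppa3 (471.2 to 1023.3, 0.69) and Fbxo15 (628.8 to 1285.8, 0.61) had the largest ratios in size. Of 10 genes of the LIF and Stat3 pathway, which lies upstream of Klf4 and Tfcp2l1, none was 2-fold different on either scale and the median was 0.02 (0.45 as deposited). The leading values there were those of Junb on chromosome 8 (634.5 to 583.7, -0.55), Bcl3 (277.3 to 481.3, 0.37) and the LIF receptor Lifr (381.1 to 651.0, 0.35).

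Of 10 measured genes of the formative and primed states, which follow the naive state, none was 2-fold different on either scale and the median was -0.09 (0.34 as deposited). Sox11 (737.6 to 589.0, -0.75), Pou3f1 (817.6 to 1355.2, 0.30) and Sox3 (530.2 to 868.1, 0.29) had the largest ratios in size, and Fgf5, a marker of the primed epiblast, was below the floor on both arrays (4.1 and 8.1). The median of the 10 naive factors, 0.47, thus stood beside medians between -0.12 and 0.02 in these 4 lists of the pluripotency network. The trophoblast list described below had a median of 0.29. The members and lists were chosen with earlier results of these data known, so the contrast between their medians is not an independent result. With 1 array per group the difference between the lists was not tested.

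**Figure D4:**
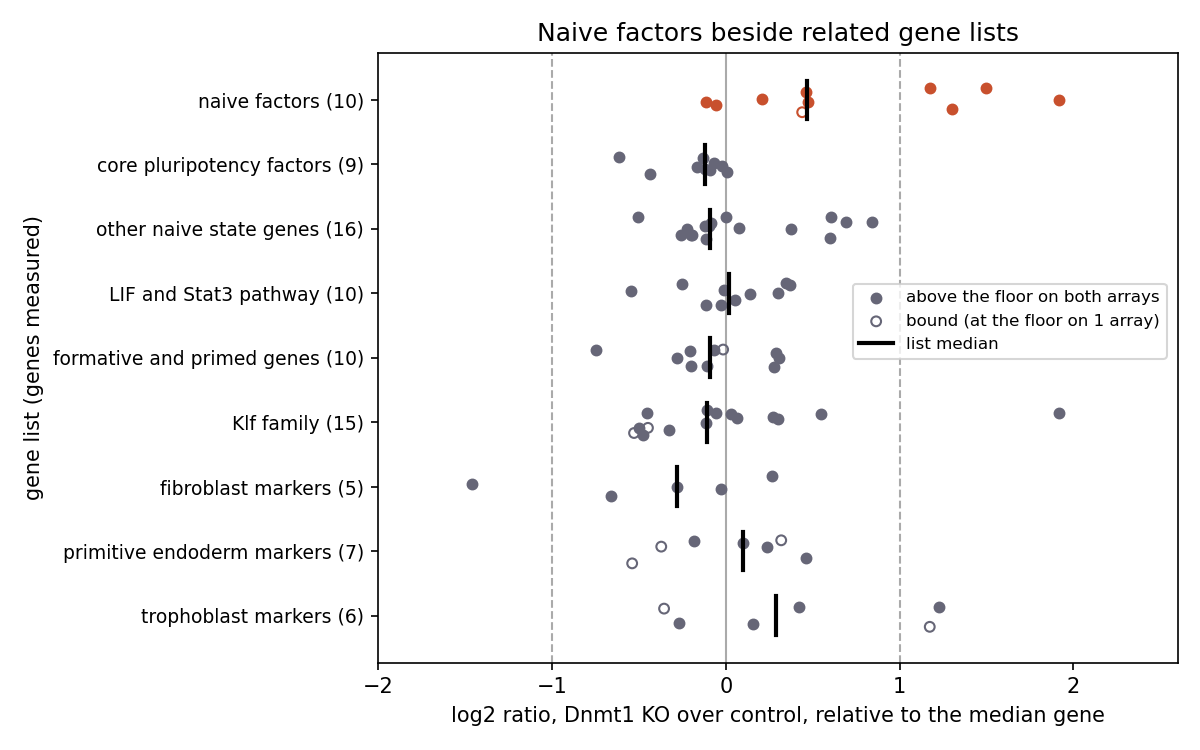
log2 ratio relative to the median gene (x axis) of each measured gene of the naive factors and of 8 further lists (y axis, number measured in brackets), with list medians as bars and bounds as open circles. The naive factors have a median of 0.47 and 4 genes beyond 2-fold, and the only Krüppel-like gene beyond 2-fold is Klf4.

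Markers of other cell types were read on the same arrays. Of 8 trophoblast markers, 6 were above the floor on at least 1 array and 2 reached 2-fold in the higher direction on both scales, or 1 with the floor at the 75th percentile. These were Tfap2c (446.3 to 1405.5, log2 ratio 1.23), which is also a germ cell and ES cell factor, and the keratin Krt7 (58.2 to 184.5, at least 1.17). Krt8 had 0.42, Krt18 0.15 and Eomes, a regulator of trophoblast stem cells, -0.27 (161.0 to 179.1), and the median of the list was 0.29 (0.71 as deposited). The summed signal of these 8 genes, as deposited, was 2585.8 in the control and 4791.4 in the KO, and the brightest genes carry most of such a sum. The trophoblast regulators Elf5 and Gata3 were below the floor on both arrays. Cdx2 went from 70.7 to 54.1, which is below the floor on the KO array. Its log2 ratio is therefore a bound, -0.36 or below (0.07 or below as deposited).

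Of 9 primitive endoderm markers, 7 were measured and none was 2-fold different. Of the 7, 4 lay above the shift, against 49.2% of all genes, and the median was 0.10 (0.53 as deposited). The summed signal of the 9, as deposited, was 1696.2 and 2808.3, with Sparc (1030.7 to 1904.0, 0.46) as the largest part. Lama1 had 0.24, Dab2 0.10, Foxa2 -0.18, Sox17 at least 0.32 (41.0 to 102.0), Gata4 -0.54 or below and Gata6 -0.37 or below. Of 10 fibroblast markers, which feeder cells would carry, 5 were measured, with a summed signal over the 10, as deposited, of 1953.7 and 2005.9. Tagln was 2-fold lower on both scales (707.9 to 345.9, -1.46), Col1a1 and Col1a2 had -0.66 and -0.28, Acta2 -0.03 and Thy1 0.27 (340.0 to 549.8), with a median of -0.28 (0.14 as deposited), and Col3a1, Postn, Lum, Dcn and Pdgfrb were below the floor on both arrays. The part of these markers in the ratios of the naive factors was not tested.

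**Figure D5:**
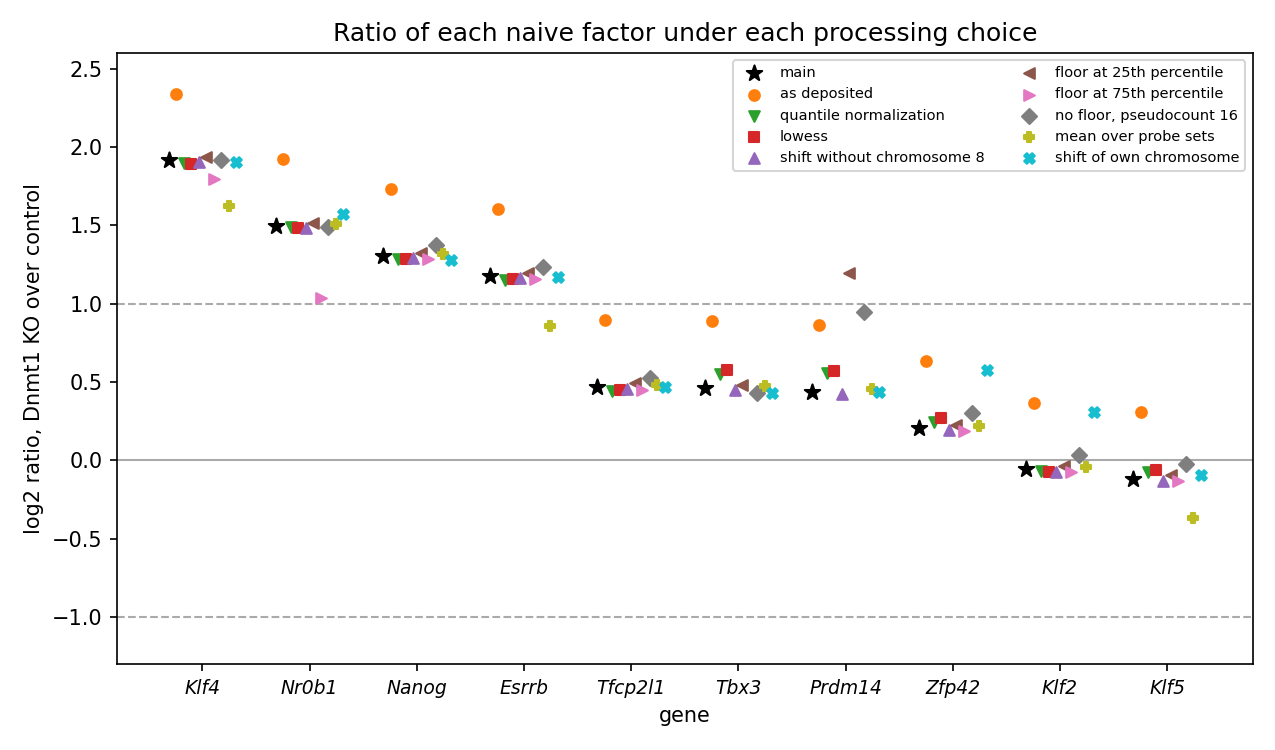
log2 ratio of KO over control (y axis) of each naive factor (x axis) under the main setting (star) and 9 others, each with its own marker; dashed lines mark 2-fold, and a gene below the floor on both arrays in a setting has no marker there. Klf4, Nr0b1 and Nanog lie above 2-fold in each of the 10 settings, Esrrb in 9, and Klf2 and Klf5 lie around 0.

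The ratios of the members were recomputed with other scalings, floors and ways to combine probe sets, 10 settings in all. Klf4 had log2 ratios from 1.62 to 2.34, Nanog from 1.28 to 1.73 and Nr0b1 from 1.04 to 1.92, the lowest value being a bound with the floor at the 75th percentile. Esrrb ran from 0.86, the mean over its probe sets, to 1.60. Prdm14 passed 2-fold in 1 setting, the floor at the 25th percentile, where its control signal was above the floor. Klf2 was above 0 in 3 of the 10 settings and Klf5 in 1, the values as deposited.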

How the data were processed

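The deposited values are signal intensities on a linear scale, made by the authors with MAS5, per the submitters' processing notes. Its target intensity, detection calls and the genome build behind the annotation are not stated there, so genes are placed by chromosome only. Base positions are given for the RefSeq promoter windows, in their own build.

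Of 45101 probe sets, 64 Affymetrix controls were left out, 34945 had 1 gene symbol, 932 had several and 9160 had none listed. Only single-gene probe sets were used, with symbols updated through gene identifiers to RefSeq (GRCm38.p6), which held 34741 of them. Signals below an array's median were raised to it, and log2 ratios were taken between the arrays. The shift was the median ratio of the 10995 genes measured on both arrays. The brightest probe set stood for a gene. Called means at least 2-fold, with no test.

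Named were all members, Dnmt1, Pou5f1, Sox2, and the 3 genes per list with the largest ratios in size. The 3 genes nearest to Klf4 in signal, also in the rule, are not reported, because signals of different probe sets are not comparable. Other genes were named after their values were seen. The members and lists were chosen with earlier results of these data known. The procedure was run on simulated data in which the changed genes lay well above the control floor. That run therefore does not cover members near the floor. Alternatives were quantile normalization, lowess (span 0.3), other floors, a pseudocount of 16, mean probe sets and other thresholds. Python 3.11.15, pandas 2.3.3 and statsmodels 0.14.6 were used.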

Additional observations from a re-analysis of the deposited data

How the results depend on the processing

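No paired analysis was possible because each group had 1 array, and for the same reason no replicate could be left out. The count of naive factors at least 2-fold higher was 4 in 8 of the 11 other settings, 5 with the floor at the 25th percentile, 3 with the mean over probe sets, and 1 (Klf4) at a 3-fold threshold. None was called lower in any of these settings. The share of all genes at least 2-fold higher was 1.09% in the main setting and 4.92% as deposited. Shares were not worked out for the other settings, where the number of genes measured can differ. Their counts over all genes are given below, except for centring on each chromosome, where all genes were not counted. Centring on each gene's own chromosome, one of the 11, was chosen after seeing the data. The members' median log2 ratio moved from 0.47 to 0.89 as deposited, 0.84 with the floor at the 25th percentile, 0.75 with it at the 75th, where Tbx3 and Prdm14 were below the floor on both arrays, and 0.73 without a floor and with a pseudocount of 16.

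Over all genes, 133 were higher and 65 lower, against 602 and 12 as deposited, 361 and 388 with the floor at the 25th percentile, 48 and 12 with it at the 75th, and 312 and 379 without a floor. The thresholds of 1.5-fold and 3-fold gave 579 and 519 and then 32 and 6. Quantile normalization gave 153 and 53, lowess 158 and 48, and the mean over probe sets 113 and 51. With the shift taken without chromosome 8, the counts were 123 and 69. As deposited, 98.0% of the called genes were higher, against 67.2% relative to the shift. A higher floor leaves fewer genes, and the cause of these differences was not tested. Low signals limit Tbx3 and Prdm14, which lie near the floor.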
